A study of Mus musculus with 6 samples.

Results

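Cytosolic ribosomal protein genes were examined in primary mouse keratinocytes with and without Cebpb. The members were 75 protein-coding genes of the 55416 in the count table: 42 proteins of the large subunit, 30 of the small subunit and the 3 proteins of the P stalk. They were chosen by symbol (Rpl or Rps with a number, and Rplp0, Rplp1, Rplp2 and Rpsa), by a mean of at least 10 CPM (counts scaled to a common library size) over all libraries, and by not being annotated as pseudogenes. The rule uses no difference between genotypes. The keratinocytes, the main cells of the epidermis, came from C57BL/6J:129 hybrid pups aged 1 to 2 days and were either wild type (wt in the labels, libraries 1, 2 and 3) or C/EBPβ -/- (CEBPB KO, libraries 4, 5 and 6). C/EBPβ, the product of Cebpb, is a leucine zipper transcription factor. Both genotypes were cultured in 0.05 mM calcium. On day 5 after plating they were irradiated with a 312 nm lamp at a UVB dose of 10 mJ/cm2, and RNA was taken 8 h after exposure. No unirradiated cells were analysed here, so every value below compares genotypes after UVB. Nothing in the labels ties the libraries to separate pups or dishes, so p-values measure only the spread between these libraries, which may be technical.

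A cytosolic ribosome holds one copy of most of these proteins on a scaffold of ribosomal RNA, and the P stalk, which recruits elongation factors, holds several copies of P1 and P2. Most of the mRNAs begin with a run of pyrimidines, the TOP motif, through which the kinase mTORC1 and the protein LARP1 adjust their translation together. Surplus ribosomal proteins are degraded, and RPL5 and RPL11 bound to 5S rRNA can inhibit MDM2 and so stabilise p53. UVB damages RNA as well as DNA, and ribosomes that stall and collide on damaged mRNA start a stress response through the kinase ZAKα.

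RefSeq promoter entries (GRCm38.p6) existed for 55 of the 75 members. A run of at least 8 C or T on the gene's strand lay within 30 bases before to 20 bases after an annotated start in 29 of these 55 genes (52.7%), against 22.9% of all 27025 genes in the promoter table. The windows below run from 35 bases before to 25 after the start, 5′ to 3′ on the gene's strand, with the run in capitals. They are shown because members with and without a run lay at both ends of the fold changes that follow. The windows of Rpl37a (chr1:72711225-72711284, plus strand) and Rps4x (chrX:102189367-102189426, minus strand) hold no such run. Those of Rps25 (chr9:44407679-44407738), Rpl27a (chr7:109519160-109519219), Rpl7a (chr2:26910772-26910831) and Rps27l (chr9:66946051-66946110, the first of its annotated starts), all on the plus strand, hold runs of 14, 20, 21 and 9 bases.
Rpl37a: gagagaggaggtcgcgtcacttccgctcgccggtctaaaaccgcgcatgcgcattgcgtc
Rps25: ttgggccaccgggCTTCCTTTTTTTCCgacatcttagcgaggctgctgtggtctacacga
Rpl27a: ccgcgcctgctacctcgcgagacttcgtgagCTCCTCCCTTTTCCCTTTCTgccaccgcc
Rpl7a: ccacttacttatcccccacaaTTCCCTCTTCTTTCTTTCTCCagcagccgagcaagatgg
Rps4x: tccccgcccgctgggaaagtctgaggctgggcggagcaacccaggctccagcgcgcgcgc
Rps27l: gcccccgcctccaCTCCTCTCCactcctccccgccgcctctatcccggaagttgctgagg

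The total count of a library was 107757415 to 122797031 for wild type and 81256192 to 92987497 for knockout cells. The Cebpb count was 18184, 17628 and 12036 in wild type cells and 78, 109 and 78 in knockout cells, as labelled. Keratinocyte markers summed to 42310 to 47450 CPM in wild type and 25140 to 26180 CPM in knockout cells, where 9 of 10 were called lower and 1 higher. Melanocyte markers summed to 701 to 788 and 611 to 693 CPM. Dermal fibroblast markers summed to 6.29 to 8.05 and 4.70 to 5.66 CPM, endothelial markers to 6.97 to 7.47 and 4.95 to 5.87 CPM, and immune markers to 3.54 to 5.55 and 3.09 to 3.44 CPM. Cd3e, Cd3g, Cd207, Mpo and Mcpt4 among the immune markers, Cdh5, Cldn5 and Emcn among the endothelial ones and Lum among the fibroblast ones had at most 3 counts in every library. The part of the lower keratinocyte markers in the results below was not tested. The summed level of 4 Y-linked genes was 60.7 to 68.1 CPM for wild type and 0.101 to 0.158 CPM for knockout cells, so a difference in sex makeup cannot be told apart from genotype. In bulk RNA, fewer cells of a type and less RNA per cell cannot be told apart either.

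Ribosomal protein mRNAs took a smaller share of the counts in knockout cells. The 75 members together held 8.35%, 8.19% and 8.64% of the counts of libraries 1 to 3 (wild type) and 7.12%, 7.64% and 7.64% of those of libraries 4 to 6 (knockout). Every knockout library lay below every wild type library. The mean share was 8.39% ± 0.225 in wild type and 7.47% ± 0.302 in knockout cells (SD, n = 3 each), a ratio of 0.890. No p-value is given for a sum over members.

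Each part of the ribosome contributed to the smaller share. Large subunit genes went from a mean of 4.11% ± 0.104 to 3.70% ± 0.159 of the counts, and small subunit genes from 3.62% ± 0.122 to 3.21% ± 0.127 (SD, n = 3 each). The 3 stalk genes went from 0.662% ± 0.00261 to 0.552% ± 0.0196, the smallest ratio of the 3 classes at 0.834. The 20 most abundant genes of the table took 12.9% to 13.5% of a wild type library and 10.3% to 10.6% of a knockout library. Mitochondrially encoded genes took 1.47% to 1.64% and 1.79% to 2.17%. With the most abundant genes left out of both sums the members held 8.35% ± 0.281 and 7.22% ± 0.325, and with the mitochondrial genes left out of the total 8.52% ± 0.228 and 7.62% ± 0.321 (SD, n = 3 each). Reads of ribosomal protein pseudogenes came to 0.108% to 0.116% of a wild type library and 0.103% to 0.110% of a knockout library.

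**Figure D1:**
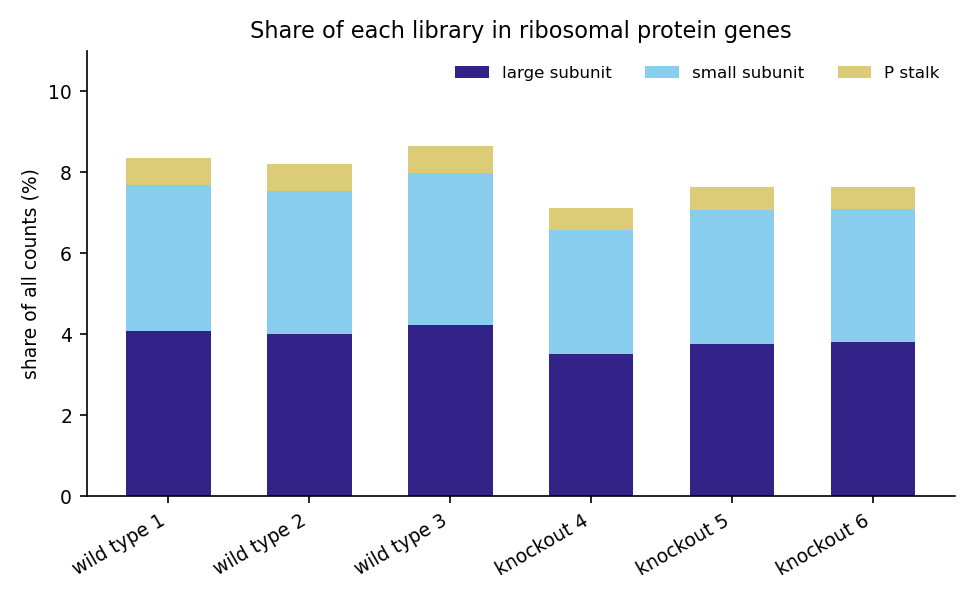
Share of all counts, in percent, in large subunit, small subunit and P stalk genes, stacked, for each of the 6 libraries. The 3 knockout bars, 7.12% to 7.64%, all end below the 3 wild type bars, 8.19% to 8.64%.

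Nearly the whole class was lower in knockout cells. With edgeR's quasi-likelihood test and Benjamini-Hochberg adjustment over 17659 genes, 68 of the 75 members were lower in knockout cells, 1 was higher and 6 were not called at an adjusted p under 0.05. Over all genes tested, 23.7% were called lower and 24.8% higher. The members' median log2 fold change (knockout over wild type) was -0.38, which leaves 76.6% of the wild type level. Its middle 50% of members ran from -0.47 to -0.25 and its full range from -0.79 to 0.21. Over all genes tested the median was 0.01. The SD of the fold changes was 0.17 over the members and 0.95 over all genes tested. For 67 members all knockout libraries lay below all wild type libraries, and for 1 all lay above. Over all genes tested, such separation was found for 27.6% and 28.7% respectively.

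The size of the difference depended on the scaling. CPM here are scaled by edgeR's trimmed mean of M values (TMM), whose factors were 0.926 to 0.947 for wild type and 1.06 to 1.09 for knockout cells. Scaled by library totals, the members' median was -0.19 and that of all genes tested 0.21. The gap between members and all genes was -0.40 under both scalings. That equality was fixed in advance, because a change of scaling moves every gene by nearly the same amount. By library totals 43 members were called lower and 1 higher, against 13.9% and 36.7% of all genes tested. Then 13 members had a log2 fold change above 0, and 6 of these had been called lower under TMM (Rpl4, Rpl17, Rps7, Rpl7 and Rpl35a among them), at 0.02 to 0.05. None of these 6 was called under library totals, where their smallest edgeR adjusted p was 0.419. Knockout library 4 was the lowest of all libraries for 74 of the 75 members, and wild type library 3 the highest for 57. Without knockout library 4 the median was -0.33 and 60 members were called lower.

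Large and small subunit genes had similar medians. Of the 42 large subunit genes 38 were called lower, with a median log2 fold change of -0.34, and of the 30 small subunit genes 27 were called lower and 1 higher, with a median of -0.38. All 3 stalk genes were lower, with a median of -0.45. Over all genes tested 23.7% were called lower and 24.8% higher. By library totals 21 large subunit genes were called lower and 0 higher, and 19 small subunit genes lower and 1 higher. The shares of all genes tested were then 13.9% lower and 36.7% higher. Rplp0, the stalk's anchor on the ribosome, was at 3720, 3718 and 3743 CPM in wild type and 2629, 2803 and 2776 CPM in knockout libraries. Its groups were apart by far more than the spread in either (log2 fold change -0.45 ± 0.05 SE, edgeR adjusted p = 3.04e-06).

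Rpsa, Rpl5, Rpl11 and Rps6 were not called different from the members' median in the test described below. Rpsa, also described as a laminin receptor precursor, was at 3770, 3712 and 3858 CPM in wild type and 2804, 3042 and 3006 CPM in knockout libraries. Its groups did not overlap, and its log2 fold change was -0.36 ± 0.05 SE. Rpl5 and Rpl11, the partners of 5S rRNA that bind MDM2, changed by -0.35 ± 0.07 and -0.33 ± 0.07 (log2, SE). Rps6, the substrate of S6 kinase, changed by -0.26 ± 0.06. All 4 were called lower by edgeR (adjusted p = 4.37e-05, 0.000386, 0.000548 and 0.00262). By library totals Rpl11 (-0.13, adjusted p = 0.0707) and Rps6 (-0.06, adjusted p = 0.400) were not called.

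**Figure D2:**
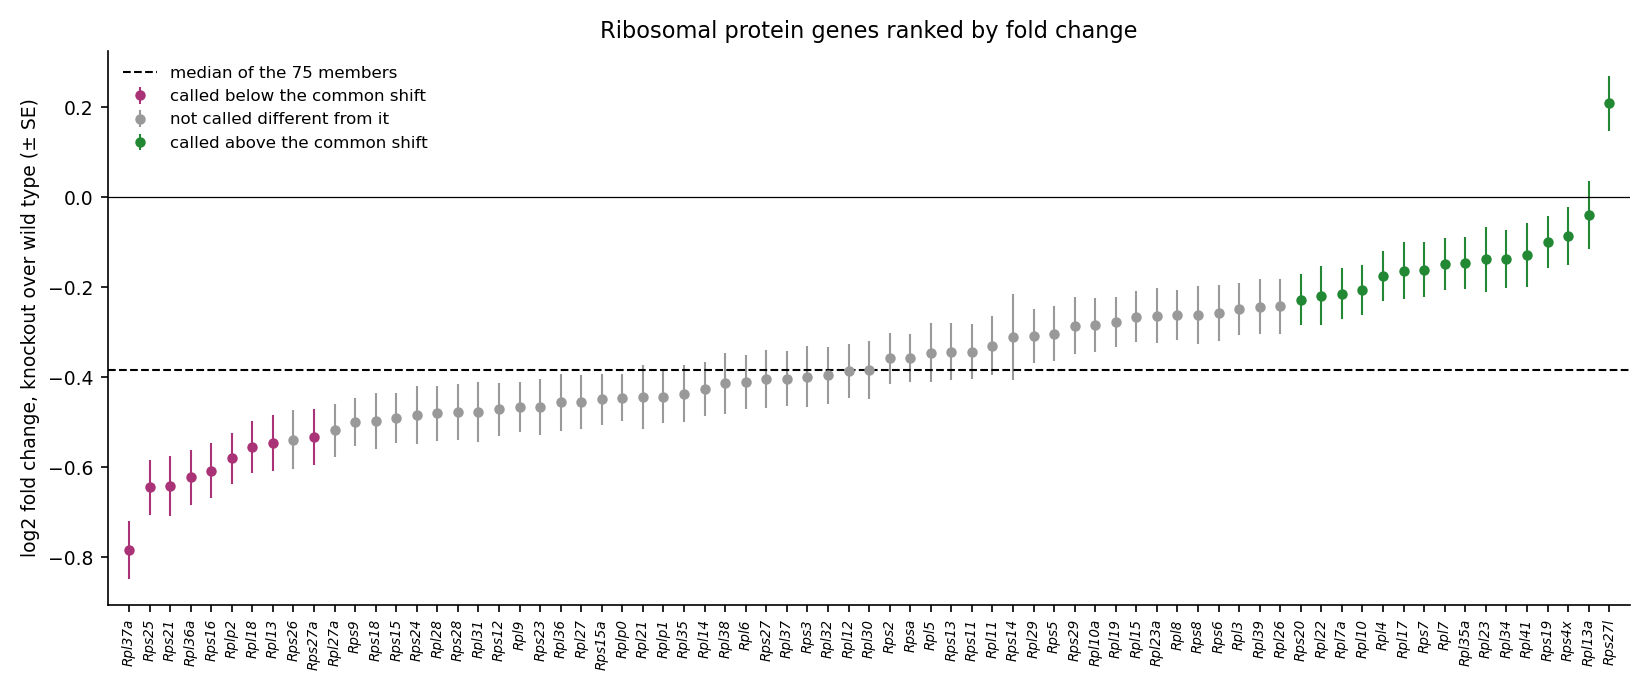
Log2 fold change, knockout over wild type, with its SE, for 73 of the 75 members in order, from Rpl37a at -0.79 to Rps27l at 0.21. The dashed line is the members' median of -0.38, and colours mark members whose departure from it was called.

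To ask which members departed from the common shift, every gene was tested again against a fold change equal to the members' median in place of 0. Of the 75 members, 10 lay below the shift, 17 above it and 48 were not called different from it (edgeR, adjusted p under 0.05 over 17659 genes). Over all genes tested 8.72% were called below it and 51.7% above it. Leaving out each library in turn, 6 of the 10 and 13 of the 17 were called every time. Large subunit genes made up 5 of the 10 and 11 of the 17, and small subunit genes 4 and 6. Of the 3 stalk genes only Rplp2 departed.

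Rpl37a, a large subunit protein with a zinc finger, fell furthest. It was at 474, 483 and 512 CPM in wild type and 258, 298 and 298 CPM in knockout libraries. The highest knockout library lay well below the lowest wild type library, and the log2 fold change was -0.79 ± 0.06 SE (edgeR adjusted p = 4.82e-08), or 58.0% of the wild type level. Relative to the common shift it was -0.40 ± 0.06 SE (adjusted p = 5.04e-05).

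Several small subunit proteins followed it. Rps25, which several viral RNAs need to start translation from internal entry sites, was at 778, 740 and 783 CPM in wild type and 451, 491 and 528 CPM in knockout libraries. Rps21 was at 327, 338 and 338 against 191, 227 and 225 CPM. Rps16, whose tail reaches the tRNA in the ribosome's P site, was at 1318, 1293 and 1438 against 826, 932 and 900 CPM. In each of the 3 the groups were apart, with knockout library 4 the lowest. Their log2 fold changes were -0.65, -0.64 and -0.61, and their departures from the shift -0.26, -0.26 and -0.22 (edgeR adjusted p = 0.00167, 0.00320 and 0.00511).

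Among the remaining members below the shift, Rpl36a, an X-linked large subunit protein at the exit site of tRNA, was at 346, 331 and 354 CPM in wild type and 206, 225 and 239 CPM in knockout libraries. Rplp2, a protein of the stalk, was at 933, 865 and 869 against 564, 616 and 604 CPM. The groups were apart for both, with log2 fold changes of -0.62 and -0.58 and departures of -0.24 and -0.20 (edgeR adjusted p = 0.00324 and 0.00708). Rpl18, Rpl13 and Rps27a, the last made as a fusion with ubiquitin, departed by -0.17, -0.16 and -0.15. Each of these 3 lost that call when 1 library or another was left out, Rps27a in 5 of the 6 fits. Just outside stood Rps26, with a departure of -0.15 (adjusted p = 0.0502), and Rpl27a, whose window with a run of 20 pyrimidines is shown above, with -0.13 (adjusted p = 0.0579).

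At the other end, Rps27l was the only member called higher in knockout cells. It encodes a close relative of Rps27 and is known as a target of p53. Its levels were 134, 124 and 139 CPM in wild type and 145, 155 and 158 CPM in knockout libraries. Every knockout library was above every wild type library, with a log2 fold change of 0.21 ± 0.06 SE (edgeR adjusted p = 0.00987). Without wild type library 2 the value was 0.16 and the call was lost (adjusted p = 0.0557). Relative to the common shift Rps27l was 0.59 ± 0.06 SE higher (adjusted p = 4.79e-07), a call that held without each library.

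The next 3 members lay nearest to their wild type level under TMM scaling and were not called different from it. Rpl13a, which is known to be released from the ribosome after interferon γ and to silence inflammatory mRNAs, was at 45.7, 42.8 and 48.6 CPM in wild type and 40.9, 45.8 and 46.8 CPM in knockout libraries. Rps4x, an X-linked small subunit protein, was at 1611, 1496 and 1772 against 1463, 1537 and 1597 CPM. Rps19, a gene mutated in Diamond-Blackfan anaemia, was at 833, 787 and 852 against 722, 789 and 797 CPM. In all 3 the groups overlapped. Their log2 fold changes were -0.04 ± 0.08, -0.09 ± 0.06 and -0.10 ± 0.06 (SE), and each was above 0 by library totals (0.16, 0.11 and 0.10, none called). Their departures from the shift were 0.35, 0.30 and 0.29 (edgeR adjusted p = 0.000956, 0.000813 and 0.000470), and these calls held without each library.

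Rpl41, Rpl34 and Rpl23 were likewise not called lower, at -0.13, -0.14 and -0.14 (log2), and lay 0.26, 0.25 and 0.25 above the shift. Rpl41 is the smallest protein of the ribosome, and Rpl23 is a further large subunit protein that can bind MDM2. Rpl35a, another gene of Diamond-Blackfan anaemia, was at 346, 333 and 352 CPM in wild type and 290, 314 and 327 CPM in knockout libraries. Its groups were apart by a few CPM, and its log2 fold change of -0.15 ± 0.06 SE was barely called (edgeR adjusted p = 0.0480). That call was lost in 5 of the 6 fits that left out a library, while its departure of 0.24 was kept in all 6. The other members above the shift included Rpl7, Rps7, Rpl17, Rpl4, Rpl10, Rpl7a, Rpl22 and Rps20, with departures of 0.16 to 0.24. Of these, Rps20, Rpl22, Rpl7a and Rpl10 lost the call when 1 library or another was left out, Rpl22 in 5 of the 6 fits.

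**Figure D3:**
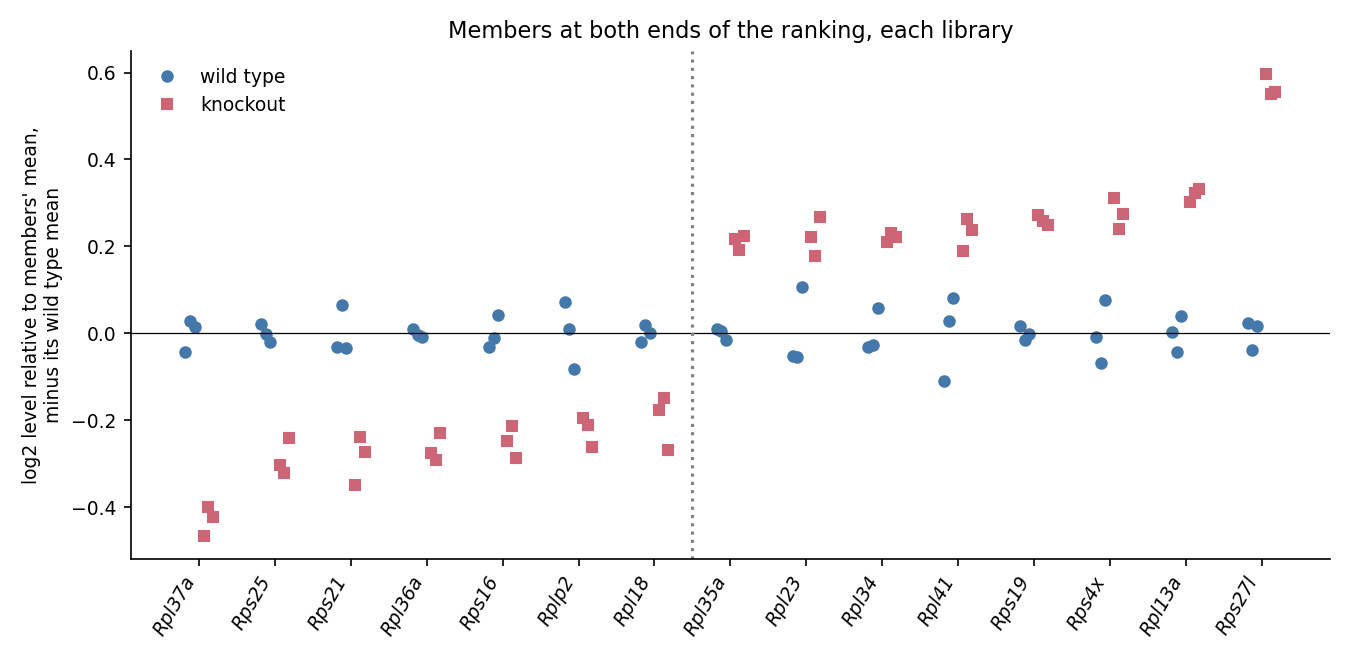
For 7 of the 8 members with the lowest fold change and the 8 with the highest, the log2 level in each library relative to the geometric mean of all 75 members in that library, minus the gene's wild type mean. Each point is 1 library; for these 15 genes, which were picked for their fold change, the knockout points lie on one side of the wild type points.

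Across the 75 members the log2 fold change had a Spearman's rho of 0.22 with coding length, 0.12 with mRNA length and -0.10 with mean CPM. These genes share libraries and depth, so the correlations are a description.

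Members with and without a pyrimidine run near an annotated start had similar fold changes. A run could lie wholly before the start, as in Rps25, so these groups do not separate mRNAs with and without a TOP motif. The median was -0.43 in the 29 genes with a run and -0.39 in the 26 without. The longest run of all, 21 bases in the Rpl7a window above, belonged to a gene at -0.21, and Rpl27a with 20 was at -0.52. Other motifs were counted over 250 bases before to 50 after a start, on both strands. CCGGAAG, a core of ETS family sites, was in 41.8% of the 55 members and 9.93% of all genes in the promoter table, and GGGCGG, a core of Sp1 sites, in 61.8% and 38.2%. AAGATGG, a core of YY1 sites, was in 16.4% and 7.28%. TTGCNNAA, a core of C/EBP sites, was in 7.27% and 12.2%. CCAAT was in 32.7% and 41.1%, and TATAAA in 10.9% and 15.7%. A match is a description of letters and not a binding site.

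The 4 X-linked members differed among themselves. Rpl36a changed by -0.62, Rpl39 by -0.24, Rpl10 by -0.21 and Rps4x by -0.09 (log2), against the members' median of -0.38. Rpl39, a protein of the exit tunnel, was at 253, 239 and 232 CPM in wild type and 189, 209 and 214 CPM in knockout libraries. Rpl10, which joins the large subunit late, was at 1292, 1228 and 1235 against 1035, 1075 and 1145 CPM. In both genes the groups were apart under TMM scaling, but by library totals neither was called (-0.05 and -0.01, edgeR adjusted p = 0.542 and 0.913). Xist, the RNA that silences an X chromosome, was at 387 to 414 CPM in wild type cells and 567 to 604 CPM in knockout cells, beside the difference in Y-linked genes given above.

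Paralogs of core members took a larger share of their pairs in knockout cells in 2 of the 3 pairs shown. Shares were not computed for Rpl7l1 with Rpl7 (log2 fold changes of -0.45 and -0.15). Nor were they for the annotated pseudogene Rps4l with Rps4x (0.16 and -0.09). Of the summed level of Rps27l and Rps27 per kilobase of mRNA, Rps27l held 18.5%, 16.8% and 17.7% in wild type and 25.5%, 24.9% and 23.8% in knockout libraries. Rps27 itself was at 409, 426 and 446 CPM against 294, 325 and 349 CPM, a log2 fold change of -0.40 ± 0.07 SE (edgeR adjusted p = 8.18e-05). The groups did not overlap in either value.

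Rpl22l1, the paralog of the large subunit protein Rpl22, stands outside the symbol rule and rose. It was at 66.0, 53.1 and 59.1 CPM in wild type and 78.9, 87.7 and 98.2 CPM in knockout libraries, apart between groups, with a log2 fold change of 0.57 ± 0.09 SE (edgeR adjusted p = 4.96e-05). Rpl22 was at 436, 423 and 471 CPM against 347, 394 and 402 CPM, with a fold change of -0.22 ± 0.07 SE (adjusted p = 0.0108). That call on Rpl22 was lost without wild type library 3 or knockout library 4 and by library totals (-0.02, adjusted p = 0.790). The share of Rpl22l1 in its pair was 11.5%, 9.72% and 9.73% in wild type and 16.4%, 16.0% and 17.3% in knockout libraries. Rpl36al held 0.640% ± 0.0158 of its pair with Rpl36a in wild type and 0.610% ± 0.0312 in knockout cells (SD, n = 3 each), with overlapping libraries. Both genes of that pair fell, Rpl36al by 0.69 on the log2 scale. Shares per kilobase rest on 1 annotated transcript a gene.

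**Figure D4:**
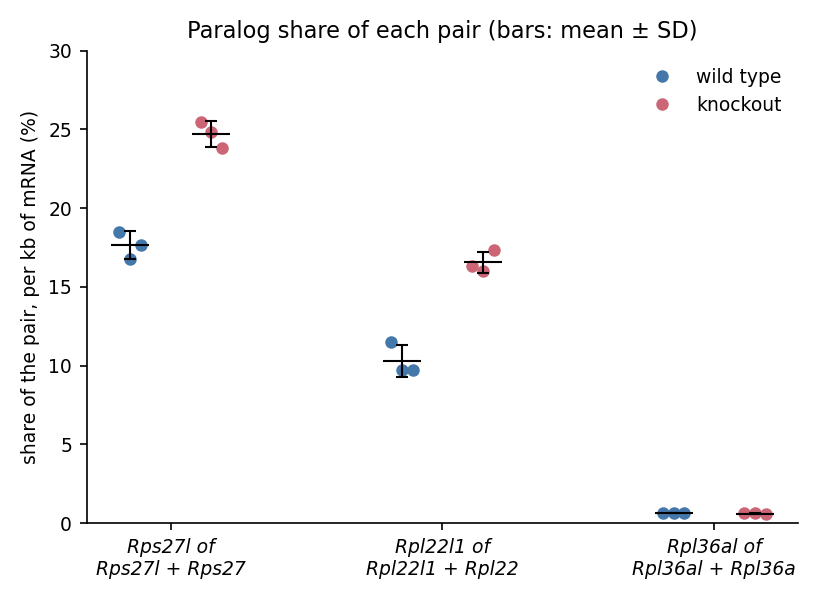
Share of a paralog in the summed level of its pair, per kilobase of mRNA, in each library, with mean and SD (n = 3). Rps27l (17.7% and 24.7%) and Rpl22l1 (10.3% and 16.6%) held more of their pairs in knockout than in wild type cells, and Rpl36al stayed under 1% in both.

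The symbol pattern matched 84 rows, of which 3 were pseudogenes and 6 lay under the minimum level. Rps10 was the gene just outside, at a mean of 8.73 CPM over all libraries before TMM scaling, with counts of 1296, 1195 and 977 in wild type cells and 675, 778 and 545 in knockout cells. Rpl13a was just inside at 45.1 CPM. Rpl24 had 55 to 102 counts a library and Rpl36al 129 to 278. The testis or muscle paralogs Rpl39l and Rpl3l had at most 10 counts in any library, and Rpl10l had 0 counts in every library. Rps10, Rpl24, Rpl13a and many other ribosomal protein genes have near-identical pseudogene copies that can take their reads in counting, so levels of single members are uncertain.

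Of 8 tested ribosomal protein genes and pseudogenes outside the members, 4 were called lower and 2 higher. Rps4l among them matched the symbol pattern but was left out as an annotated pseudogene. The shares over all genes tested were 23.7% called lower and 24.8% called higher. Fau, which encodes a small subunit protein fused to a ubiquitin-like protein, changed by -0.39 ± 0.06 (log2, SE). Rack1, the scaffold protein on the small subunit, changed by -0.32 ± 0.05, and Rps3a1 by -0.24 ± 0.07. These 3 were called lower (edgeR adjusted p = 4.47e-05, 0.000135 and 0.00835), though Rps3a1 was not by library totals (-0.04, adjusted p = 0.596) or without wild type library 3. Rpl22l1 and the annotated pseudogene Rps4l (0.16 ± 0.06 SE, adjusted p = 0.0443) were higher. The call on Rps4l was lost under several alternatives. By library totals it was kept, at 0.36 (edgeR adjusted p = 0.000289), where the median of all genes tested was 0.21. Rps27rt and Rpl13a-ps1 were not called, at -0.30 ± 0.15 and 0.01 ± 0.20 (SE). Rpl7l1, a nucleolar relative of Rpl7, was lower at -0.45 ± 0.06 SE.

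Genes that escort ribosomal proteins or export the subunits were lower as well. Of 17 chaperone and export genes 15 were called lower and 0 higher, with a median log2 fold change of -0.35. Over all genes tested 23.7% were called lower and 24.8% higher. Nmd3, the export adaptor of the large subunit, was at 87.4, 84.7 and 91.2 CPM in wild type and 43.3, 46.0 and 47.2 CPM in knockout libraries. Grwd1, a chaperone of RPL3, was at 89.7, 98.7 and 102 against 52.6, 51.5 and 47.0 CPM. For both the groups were far apart, with log2 fold changes of -0.95 ± 0.06 and -0.94 ± 0.07 (SE), and both fell further than any of the 75 members (edgeR adjusted p = 5.66e-09 and 1.49e-08). Riok1, a kinase of small subunit maturation, changed by -0.72, and Zfp622, a factor of large subunit maturation, by -0.41. The list's median was -0.15 by library totals, with 7 called lower and 0 higher.

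Elongation factors and other mRNAs with a TOP motif were more mixed. Of 20 genes 13 were called lower, 2 higher and 5 neither, with a median log2 fold change of -0.19. Among all genes tested 23.7% were called lower and 24.8% higher. Cnbp, a nucleic acid binding protein, was at 489, 508 and 547 CPM in wild type and 315, 304 and 309 CPM in knockout libraries, and Eif4b, an initiation factor, at 906, 1002 and 1064 against 661, 647 and 658 CPM. Their groups were apart, with changes of -0.74 ± 0.06 and -0.60 ± 0.06 (log2, SE). Naca, part of the complex that meets nascent chains, changed by -0.45, and Hnrnpa1, a splicing factor, rose by 0.44 ± 0.06 (edgeR adjusted p = 1.50e-05). Of 11 snoRNA host genes, whose spliced RNAs also tend to start with pyrimidines, 7 were lower and 0 higher, with a median of -0.26. Snhg3 changed by -0.92, Snhg17 by -0.47, Snhg1 by -0.41 and Gas5 by -0.28.

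Components of the mTORC1 and S6 kinase pathway moved in both directions, with 15 of 35 called lower and 9 higher and a median log2 fold change of -0.13. Over all genes tested 23.7% were called lower and 24.8% higher, and the list's share of higher calls lies near the latter. Eif4e, the cap-binding factor, was at 103, 114 and 115 CPM in wild type and 67.6, 62.3 and 65.8 CPM in knockout libraries, and Larp1, the TOP mRNA binding protein, at 221, 266 and 253 against 181, 167 and 168 CPM. Their groups did not overlap, with changes of -0.77 ± 0.06 and -0.52 ± 0.07 (log2, SE). Castor1 and Sesn3, which restrain mTORC1, rose by 1.09 ± 0.09 and 1.05 ± 0.14 (edgeR adjusted p = 7.01e-08 and 8.86e-06). Castor1 was at 11.5, 12.6 and 13.6 CPM in wild type and 28.1, 25.5 and 26.7 CPM in knockout libraries, so every knockout library held more than any wild type library.

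In the list linking 5S rRNA to p53, which shares 5 genes with the members, 6 of 12 were lower and 3 higher. Of all genes tested 23.7% were called lower and 24.8% higher, and this list's share of higher calls lies near the latter. Rrs1 and Heatr3, which help deliver RPL5 and RPL11, changed by -0.65 ± 0.06 and -0.66 ± 0.13 (log2, SE), and Rpl5 and Rpl11 as given above. Of 23 genes of ribosome collision and quality control 7 were lower, 1 higher and 15 not called, with a median of -0.16. The 23.7% of all genes tested that were called lower is close to the share of this list. Hbs1l, which rescues stalled ribosomes, changed by -0.51, Ascc2, of the complex that splits collided ones, by -0.48, Gtpbp1 by -0.41 and Rnf25 by -0.32.

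Mitochondrial ribosomal proteins, which are encoded in the nucleus, were called lower in 27 of 77 cases, higher in 3 and neither in 47. Their median log2 change was -0.13, and over all genes tested 23.7% were called lower and 24.8% higher. The difference between the cytosolic and mitochondrial counts was not tested. Mrps7 changed by -0.46, Mrpl54 by -0.49 and Mrpl19 by -0.41, while Mrpl13 rose by 0.49 ± 0.07 SE (edgeR adjusted p = 4.19e-05). Mrpl13 was at 33.7, 29.9 and 29.7 CPM in wild type and 42.8, 44.0 and 44.5 CPM in knockout libraries, without overlap.

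The medians of several of these lists changed sign with the scaling. By library totals the medians were 0.01 for elongation factors and other TOP mRNAs, 0.07 for the mTORC1 list, 0.03 for the collision list, 0.01 for the 5S list and 0.07 for mitochondrial ribosomal proteins, against 0.21 for all genes tested. The calls lower and higher were then 5 and 4, 5 and 11, 3 and 5, 4 and 5, and 3 and 14, in the same order. By the same scaling 13.9% of all genes tested were called lower and 36.7% higher. The snoRNA host genes had a median of -0.06, with 2 called lower and 0 higher.

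**Figure D5:**
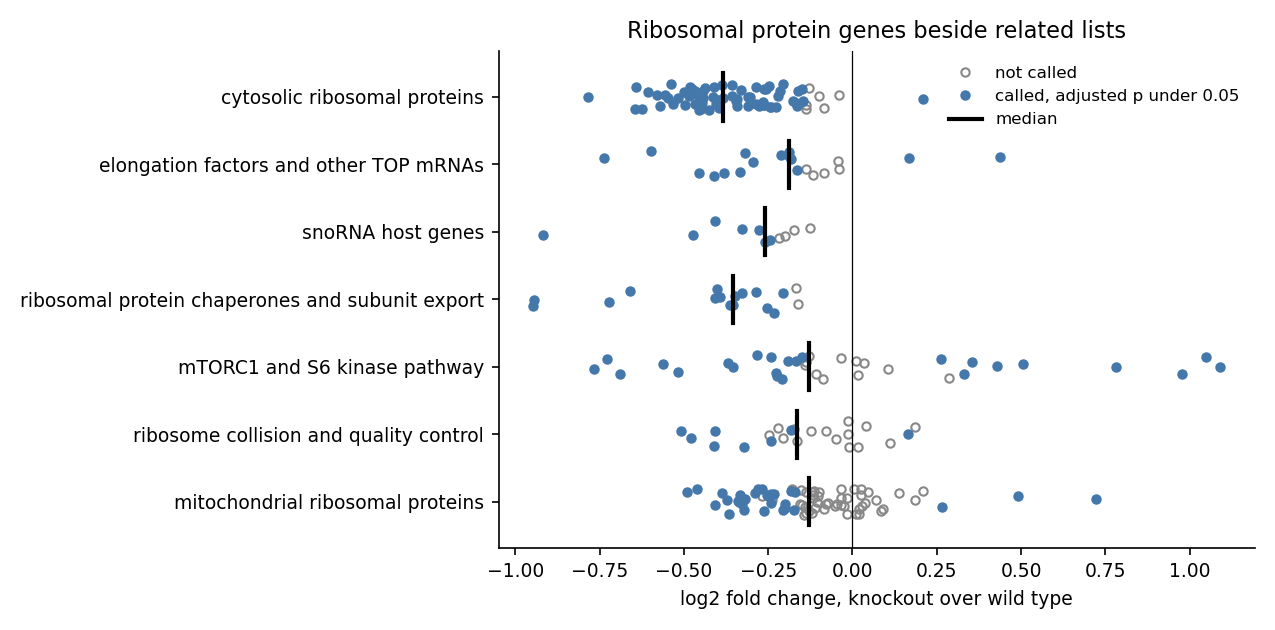
Log2 fold change, knockout over wild type under TMM scaling, of each tested gene in the cytosolic ribosomal proteins and 6 related lists, with filled points called at an edgeR adjusted p under 0.05 and a bar at the median. The median is -0.38 in cytosolic ribosomal proteins, and -0.13 in both the mTORC1 list and mitochondrial ribosomal proteins.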

How the data were processed

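Total RNA of primary keratinocytes was sequenced in 6 libraries of 150 bp paired reads, per the labels. The authors deposited 1 table of unnormalised read counts by gene. The submitters' processing notes name FastQC, STAR, HTSeq and DESeq2 and the builds mm39 and GRCm39. Tool versions, annotation and strand setting were not given in the sources used here, so reads of overlapping or antisense genes cannot be told apart. The labelled genotype set the groups, with 3 libraries each. Symbols were matched by identifier for 52083 of 55416 rows. Pseudogene status, chromosomes and lengths came from GENCODE M21.

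Counts were fitted with edgeR 4.0.16 (R 4.3.3), with filterByExpr, TMM scaling, robust quasi-likelihood dispersion and genotype as the only factor. The adjustment (Benjamini-Hochberg) ran over all 17659 genes tested, with calls at an adjusted p under 0.05. Departure from the common shift was the same test with the members' median log2 fold change added to the knockout offsets. SEs come from the log2 fold change and its F statistic (its size over the root of F). CPM in the text are TMM-scaled unless stated. The scripts were tested on simulated counts. Named genes were the 8 members with the highest and 8 with the lowest fold change, a fixed set of members and paralogs, and the 4 smallest p of each list, and the other members named departed from the shift or stood at its edge. The members and lists were chosen with earlier results of these data known. Alternatives were DESeq2 size factors, library totals, no filter, a minimum mean of 1 CPM, DESeq2 1.42.0, limma 3.58.1 voom and leaving out each library. Promoters are RefSeq entries of GRCm38.p6, used only for sequence. Protein sequences were not used here. A few genes that these rules take are not reported here by name, and they remain in the counts and medians.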

Additional observations from a re-analysis of the deposited data

How the results depend on the processing

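With library totals in place of TMM, 43 of the 75 members were called lower (68 with TMM) and the median log2 fold change was -0.19. The related lists together then had 32 genes called lower and 40 higher (92 and 19 with TMM). By library totals 13.9% of all genes tested were called lower and 36.7% higher (23.7% and 24.8% with TMM). Rpl35a and Rpl7 then turned to 0.0518 and 0.0501 (edgeR adjusted p = 0.440 and 0.419). With TMM-scaled library sizes the share of counts was 8.995% ± 0.339 in wild type and 6.97% ± 0.384 in knockout cells. Leaving out each library in turn gave 60 to 68 members lower and 0 to 1 higher (0 without wild type library 2), 8 to 10 below and 14 to 16 above the shift, and medians of -0.41 to -0.33. The share was 8.27% to 8.49% in wild type and 7.38% to 7.64% in knockout cells, and the lists had 69 to 97 genes lower and 14 to 18 higher. There were 1099 alternatives for 94 values of named genes. Of these, 1043 were counted as unchanged, 46 as losing a call, 8 as gaining one and 2 as reversed. Values not called either way counted as unchanged even where the sign turned, as for Rpl13a, Rps4x and Rps19 by library totals. The causes were not tested. DESeq2 was not run for departures. No paired analysis was possible because the labels number the wild type libraries 1 to 3 and the knockout libraries 4 to 6, so no number is shared. Depth did not limit the members, which had at least 3895 counts in every library (Rpl13a in knockout library 4).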

Other observations

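Reads assigned to ribosomal protein pseudogenes were tested for 137 rows, of which 34 were called lower and 1 higher by edgeR, and their median log2 fold change was -0.28. The share called lower is close to the 23.7% over all genes tested, while the share called higher lies far below the 24.8% over all genes. Many of these rows can hold reads of the parent gene. Rpl10a-ps2, chosen after its values were seen, had counts of 736, 616 and 721 in wild type cells and 11, 7 and 0 in knockout cells, while its parent Rpl10a changed by -0.28 (log2), so the pseudogene row stood far outside the range of the 75 members.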
